A study of Mus musculus with 8 samples.

Results

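Genes that present antigen on MHC class II were followed in mouse gastrocnemius, the large calf muscle, after activation of Lama1 by an epigenome editor. The set was listed by gene name, with no threshold on measured values, though with earlier results of these data known, and all 7 of its genes were found among the 23008 mouse genes of the deposited table: the chain genes H2-Aa, H2-Ab1 and H2-Eb1, the peptide-loading genes H2-DMa and H2-DMb1, the invariant chain gene Cd74, and Ciita. All 7 were also among the 15960 genes tested, those with a mean of at least 10 normalised reads (reads per gene divided by a size factor per library). The 8 libraries came from total RNA of wild-type C57BL/6J mice, each given AAV9, an adeno-associated viral vector, by tail vein at 7 weeks of age (7 to 12 weeks in another label). The virus carried the activator construct GNDM in every sample, with guide m31 against Lama1 in 4 and with a non-targeting guide in the 4 control samples, and muscle was taken 11 weeks later. All samples had therefore received virus and activator, and nothing here compares class II genes with and without them. The dose, the promoter that drives the activator and whether each library is a separate animal are not stated in the labels. The p-values then measure only the spread among these 8 libraries, which may be technical. This spread was wider than read counting alone gives, with a chi-square per degree of freedom of 14.3 to 57.9 between libraries of the same guide. Its other sources were not tested. Libraries held 25157486 to 39210248 reads in genes, and Lama1 stood at 86.5 to 295 normalised reads under m31 and at 0 to 4.18 under the control guide. All 8 skeletal muscle markers were measured in every library, with Ckm, the muscle creatine kinase gene, at a mean of 346295 normalised reads under m31 and 367318 under the control guide.

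MHC class II molecules show peptides from endocytosed protein to CD4+ T cells. An alpha and a beta chain assemble around the invariant chain, which guides them to endosomes, and H2-DM then exchanges the last invariant chain fragment for peptide. H2-Aa and H2-Ab1 encode the pair called I-A, and H2-Eb1 encodes the beta chain of I-E, whose alpha chain gene is defective in C57BL/6, so that this strain makes no I-E at the cell surface. Ciita encodes the transactivator that switches the whole group on, acting through factors bound to a promoter element made of an X box and a Y box. In muscle, class II belongs to interstitial macrophages, dendritic cells and B cells rather than to healthy fibres. In a bulk sample, more such cells and more RNA per cell cannot be told apart.

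The promoters are shown as background on the X and Y box element, whose part in the levels measured here was not tested. RefSeq promoters (GRCm38.p6, 250 bases before to 50 after an annotated start) were at hand for 4 of the 7 genes, H2-Aa, H2-Eb1, H2-DMa and H2-DMb1. They were searched on both strands for an X core, ACNGATG, followed on the same strand by a Y core, ATTGG, with 24 to 36 bases from start to start. The pair was present in 0.11% of 32851 promoters, the X core alone in 9.85% and the Y core alone in 37.4%. H2-Eb1 (chr17:34305617-34305916, plus strand) has the pair with its first bases 88 and 59 bases before the start, and H2-DMb1 (chr17:34152941-34153240, plus strand) has it at 91 and 61 bases. H2-Aa (chr17:34287774-34288073, minus strand) has the Y core, and an X core only on the other strand, so no pair. The X and Y cores do not overlap, and capitals mark the pair, or in H2-Aa the Y core.
H2-Eb1: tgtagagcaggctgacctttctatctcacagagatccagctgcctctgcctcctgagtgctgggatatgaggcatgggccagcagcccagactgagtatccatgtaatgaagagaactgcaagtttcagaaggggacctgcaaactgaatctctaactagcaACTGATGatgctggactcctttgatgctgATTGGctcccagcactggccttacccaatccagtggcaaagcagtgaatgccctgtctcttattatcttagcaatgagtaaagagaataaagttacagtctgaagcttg
H2-DMb1: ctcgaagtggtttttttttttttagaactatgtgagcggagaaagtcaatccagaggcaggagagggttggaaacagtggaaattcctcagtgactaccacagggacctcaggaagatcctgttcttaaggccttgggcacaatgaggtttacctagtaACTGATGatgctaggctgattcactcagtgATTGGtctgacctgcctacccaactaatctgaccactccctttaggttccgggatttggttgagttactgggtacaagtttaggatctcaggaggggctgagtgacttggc
H2-Aa: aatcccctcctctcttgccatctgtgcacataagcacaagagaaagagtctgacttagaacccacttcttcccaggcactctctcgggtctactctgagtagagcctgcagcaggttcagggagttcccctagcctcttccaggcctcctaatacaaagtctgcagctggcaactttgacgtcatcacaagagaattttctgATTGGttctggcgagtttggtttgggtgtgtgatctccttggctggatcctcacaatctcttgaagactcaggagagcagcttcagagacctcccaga
The 2 promoters listed for H2-DMa, chr17:34122582-34122881 and chr17:34125268-34125567 on the plus strand, held no such pair. Both lie inside the annotated span of the gene (34119541 to 34139101), and no other start of it was searched. The promoter of H2-DMb2, the near copy of H2-DMb1 next to it, held the pair 30 bases apart from start to start. A match describes these letters only.

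None of the 7 genes differed between the guides beyond the spread between libraries: 0 passed the test in either direction, with an adjusted p of 0.804 to 0.939 (limma on log2(value + 1), Benjamini-Hochberg over all genes tested, threshold 0.05), and 0 had an unadjusted p under 0.05. Over all genes, 0.00627% passed as higher (1 gene, Lama1), 0% as lower, and 6.79% had an unadjusted p under 0.05. All 7 estimates were positive, where 51.3% of all genes had a positive estimate, and their median log2 difference of 0.41 stood beside 0.0052 over all genes. The 7 are not independent, because the same libraries were high for each of them. In none of the 7 were the groups apart, against 1.84% of all genes with every m31 library above every control library and 3.85% with groups apart in either direction. DESeq2 and edgeR on the recovered reads also called 0 of the 7 and gave no unadjusted p under 0.05 for any of them, with 0.164% and 0.00618% of genes called overall.

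The I-A alpha chain gene H2-Aa had 692, 799, 610 and 2229 normalised reads in m31 replicates 1 to 4 and 639, 562, 1104 and 405 in control replicates 1 to 4. Within each guide 1 library was far above the other 3, m31 replicate 4 and control replicate 3, and without these the groups overlapped. The log2 difference, m31 minus control, was 0.56 ± 0.40 (SE, n = 4 each; 95% interval -0.32 to 1.43; limma adjusted p = 0.832). H2-Ab1, its beta chain partner, had 814.8, 954.2, 633.5 and 2315 normalised reads under m31 and 610, 608, 1185 and 537 under the control guide. The same 2 libraries were the high ones, and the log2 difference was 0.57 ± 0.37 (SE). H2-Eb1, the beta chain gene that has no partner in this strain, had 698, 824, 593.5 and 2213 normalised reads under m31 and 565, 546.6, 1295 and 612 under the control guide, and its log2 difference was 0.41 ± 0.39 (SE).

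Cd74 was the most abundant of the set, with 1203, 1699, 1271 and 4007 normalised reads under m31 and 1007, 1073, 2018 and 939 under the control guide. Its 3 lower m31 libraries lay above the 3 lower control libraries, while control replicate 3 was above all but m31 replicate 4. The log2 difference was 0.59 ± 0.36 (SE; 95% interval -0.21 to 1.38; limma adjusted p = 0.804), the largest estimate of the 7. H2-DMa, which encodes the alpha chain of H2-DM, had 97.81, 131.2, 77.37 and 187.5 normalised reads under m31 and 89.6, 79.2, 126 and 70.6 under the control guide. Here m31 replicate 2 was also above every control library, and the log2 difference was 0.39 ± 0.27 (SE). H2-DMb1, which encodes the beta chain of H2-DM, had 87.37, 88.95, 71.91 and 176.3 normalised reads under m31 and 63.6, 75.4, 128 and 65.3 under the control guide, and its log2 difference was 0.32 ± 0.30 (SE).

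Ciita had 64.58, 32.35, 40.05 and 117.8 normalised reads under m31 and 25.95, 31.48, 121.4 and 45.31 under the control guide, from 31 to 147 reads per library. It was the only member whose highest library was a control library, control replicate 3, and its estimate was the smallest and least precise, 0.28 ± 0.49 (SE; 95% interval -0.81 to 1.37). The members varied more between libraries than most genes: their median SE was 0.37, above that of 92.1% of the genes tested, whose median SE was 0.15. Each interval therefore still holds no difference as well as a difference of 0.98 or more on the log2 scale.

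**Figure D1:**
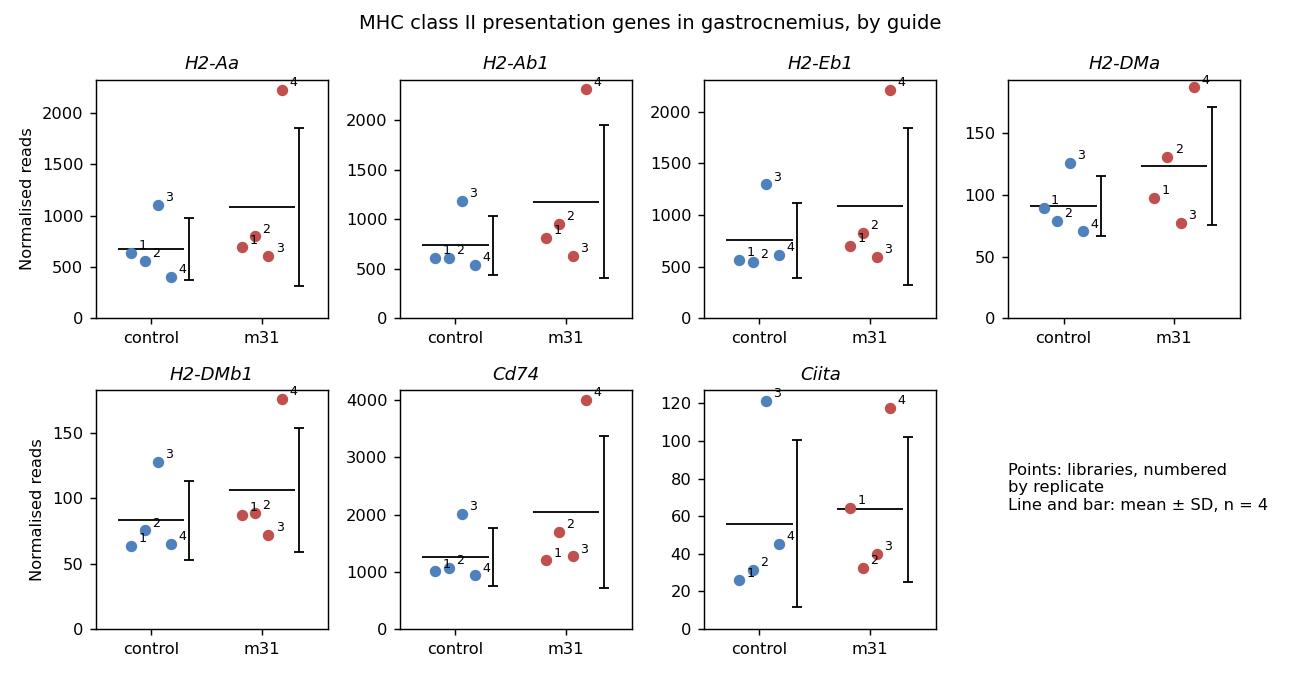
Normalised reads of the 7 class II genes (vertical axes, from 0) in control and m31 libraries; points are libraries numbered by replicate, horizontal lines are means and bars ± SD (n = 4). In each gene m31 replicate 4 and control replicate 3 are the highest of their groups, and the groups overlap.

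Per kilobase of merged exon length (GENCODE M21), the set kept one order of 4 levels in every library. Cd74 was highest in all 8 libraries, at 663 to 2830 normalised reads per kb. H2-Aa (359 to 1976), H2-Ab1 (443 to 1910) and H2-Eb1 (328 to 1326) followed, and each was above both H2-DM genes in all 8 libraries. H2-Aa and H2-Ab1 did not differ beyond their spread, with 960 ± 681 and 973 ± 634 normalised reads per kb under m31 and 601 ± 266 and 606 ± 249 under the control guide (mean ± SD, n = 4 each). H2-DMa (26.5 to 70.3) and H2-DMb1 (45.3 to 126) came next, with H2-DMb1 above H2-DMa in all 8 libraries by merged exon lengths of 1404 and 2668 bases. That order rests on the lengths: before division H2-DMb1 stood at 0.68 to 1.02 times H2-DMa, and above it only in control replicate 3. Ciita was lowest in all 8 libraries, at 3.155 to 14.76 normalised reads per kb. Together the 7 genes took 0.00798 to 0.0371% of the reads in genes, and 93.2 to 95.7% of that came from the 3 chains and Cd74.

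In GENCODE M21 (build GRCm38; Ensembl identifiers were matched, and the authors' annotation is not given) the chain and H2-DM genes lie together on chromosome 17. H2-DMa (ENSMUSG00000037649) spans 34119541 to 34139101 and H2-DMb1 (ENSMUSG00000079547) 34153072 to 34160230, both on the plus strand. H2-Ab1 (ENSMUSG00000073421) spans 34257689 to 34269419 on the plus strand, H2-Aa (ENSMUSG00000036594) 34282744 to 34287823 on the minus strand and H2-Eb1 (ENSMUSG00000060586) 34305867 to 34316674 on the plus strand. All are protein-coding, as is Ciita (ENSMUSG00000022504) on chromosome 16, from 10480059 to 10528418. H2-DMa overlaps Brd2, CR974462.4 and Gm20493 on the opposite strand and CR974462.3 on the same strand. Ciita overlaps Dexi and H2-Eb1 overlaps Gm20513, both on the opposite strand. The strand setting of the counting is not given, and of these overlapping genes only Brd2 and Dexi are given by level here. Brd2 had 2599 ± 85.5 normalised reads under m31 and 2637 ± 223 under the control guide, and Dexi 947 ± 59.7 and 856 ± 51.3, without the high values of m31 replicate 4 and control replicate 3.

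H2-DMb1 and its neighbour H2-DMb2 are near copies, which makes their counts uncertain. Their principal transcripts were 95.8% identical over 1080 aligned bases, and 369 stretches of 50 bases were shared exactly. H2-DMb2 had 23.74, 21.56, 20.94 and 28.85 normalised reads under m31 and 20.92, 15.26, 29.22 and 22.65 under the control guide. It was thus lower than H2-DMb1 in every library and spread less, with a log2 difference of 0.13 ± 0.25 (SE).

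m31 replicate 4 and control replicate 3 each held the highest value of their group for all 7 members, an arrangement shared by 13.3% of all genes tested. m31 replicate 4 was the highest of all 8 libraries for 6 of the 7, as it was for 16.5% of all genes. Both libraries were singled out after their values were seen. In m31 replicate 4 the members stood above the median of the other 3 m31 libraries by 3.22-fold for H2-Aa, 2.84-fold for H2-Ab1, 3.17-fold for H2-Eb1, 3.15-fold for Cd74 and 2.94-fold for Ciita. The H2-DM genes stood 1.92-fold (H2-DMa) and 2.02-fold (H2-DMb1) above it. In control replicate 3 the corresponding factors were 1.96, 1.95, 2.29 and 2.0 for H2-Aa, H2-Ab1, H2-Eb1 and Cd74, 1.59 and 1.96 for H2-DMa and H2-DMb1, and 3.86 for Ciita. These 2 libraries lie at opposite ends for the construct: GNDM stood at 6157 normalised reads in m31 replicate 4, the lowest of the 8, and at 37989 in control replicate 3, the highest. Lama1 was also lowest of the m31 libraries in m31 replicate 4, at 86.54 normalised reads, against 208.9, 294.7 and 273.1 in m31 replicates 1 to 3. The part of construct level or Lama1 level in the class II values was not tested.

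Without m31 replicate 4 the median log2 difference of the 7 was 0.14 in place of 0.41, and 5 of 7 estimates were positive (50.7% of all genes). H2-Eb1 and Ciita then stood at -0.01 ± 0.27 and -0.08 ± 0.47 (SE), H2-Aa at 0.14 ± 0.27 and Cd74 at 0.20 ± 0.24. Without control replicate 3 the estimates moved the other way, to 0.82 ± 0.39 for H2-Aa, 0.84 ± 0.35 for Cd74 and 0.73 ± 0.41 for Ciita (limma adjusted p of 0.4 for Cd74 as the smallest among these 3). With both left out, an alternative chosen after seeing the data, the estimates were 0.28 to 0.45 with smaller errors, 0.45 ± 0.13 (SE) for Cd74 and 0.43 ± 0.14 for H2-Ab1, and the smallest adjusted p was 0.269.

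**Figure D2:**
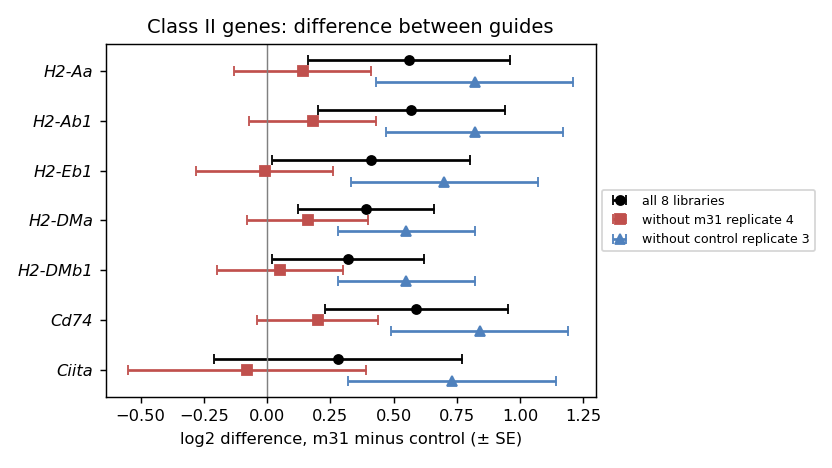
log2 difference, m31 minus control (horizontal axis, points with SE bars from limma), for each class II gene with all 8 libraries, without m31 replicate 4 and without control replicate 3. Cd74 moves from 0.59 to 0.20 without the first library and to 0.84 without the second.

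Whether the members kept their proportions was asked with ratios of normalised reads within a library, and the guides were compared by permuting the labels over all 70 arrangements (exact, two-sided, smallest possible p = 0.0286), with p adjusted over the 9 ratios. H2-Ab1 stood at 1.04 to 1.19 times H2-Aa under m31 and at 0.95 to 1.32 times under the control guide, and the mean log2 ratios were 0.15 ± 0.11 and 0.14 ± 0.20 (SD, n = 4 each; exact permutation p = 1). H2-Eb1 stood at 0.97 to 1.03 times H2-Aa in the m31 libraries. In the control libraries that ratio ran from 0.88 to 1.51, with the highest value in control replicate 4, and the log2 difference was -0.15 (exact permutation p = 0.514, adjusted p = 0.9). Cd74 stood at 1.57 to 2.32 times H2-Aa over the 8 libraries. These 3 ratios spanned 0.47 (H2-Ab1), 0.77 (H2-Eb1) and 0.56 (Cd74) log2 units over the 8 libraries, while H2-Aa itself spanned 5.50-fold.

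The proportions of H2-DMa and of Ciita to H2-Aa were looser. H2-DMa over H2-Aa spanned 1.06 log2 units over the 8 libraries, while H2-DMb1 over H2-DMa spanned 0.58. H2-DMa stood at 0.08 times H2-Aa in m31 replicate 4 and at 0.11 times in control replicate 3, against 0.13 to 0.18 times in the other 6 libraries. In control replicate 3, H2-DMb1 and H2-Aa stood above the median of the other 3 control libraries by the same factor, 1.96. Mean log2 ratios of H2-DMa to H2-Aa were -2.98 ± 0.42 under m31 and -2.81 ± 0.25 under the control guide (SD, n = 4 each; exact permutation p = 0.6, adjusted p = 0.9). H2-DMb1 over H2-DMa, the beta and alpha chains of H2-DM, stood at 0.68 in m31 replicate 2, at 0.71 in control replicate 1 and at 0.89 to 1.02 elsewhere. Ciita over H2-Aa ranged most of the ratios within the set, over 1.45 log2 units, with a log2 difference of -0.28 between guides (exact permutation p = 0.486, adjusted p = 0.9).

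Against other immune genes, H2-Aa tracked the leukocyte gene Ptprc (CD45) more closely than the class I gene H2-K1. H2-Aa over Ptprc spanned 0.59 log2 units over the 8 libraries and had means of 2.50 ± 0.24 under m31 and 2.47 ± 0.26 under the control guide (SD, n = 4 each; exact permutation p = 0.914). Over the complement gene C1qa, a macrophage marker, it spanned 1.17 units and reached its highest value, 2.54 times, in m31 replicate 4. Over H2-K1, which encodes a class I heavy chain made by nearly every cell, it spanned 1.75 units, from 0.16 times in control replicate 4 to 0.55 times in m31 replicate 4. The log2 differences between guides were 0.02, 0.24 and 0.42, and none of the 9 ratios passed (adjusted p of 0.9 or 1). With 1 library left out, the difference ranged from 0.07 (without control replicate 4) to 0.35 for H2-Aa over C1qa, and was 0.10 for it without m31 replicate 4. For H2-Aa over H2-K1 it ranged from 0.10 (without m31 replicate 4) to 0.70 (without control replicate 3).

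**Figure D3:**
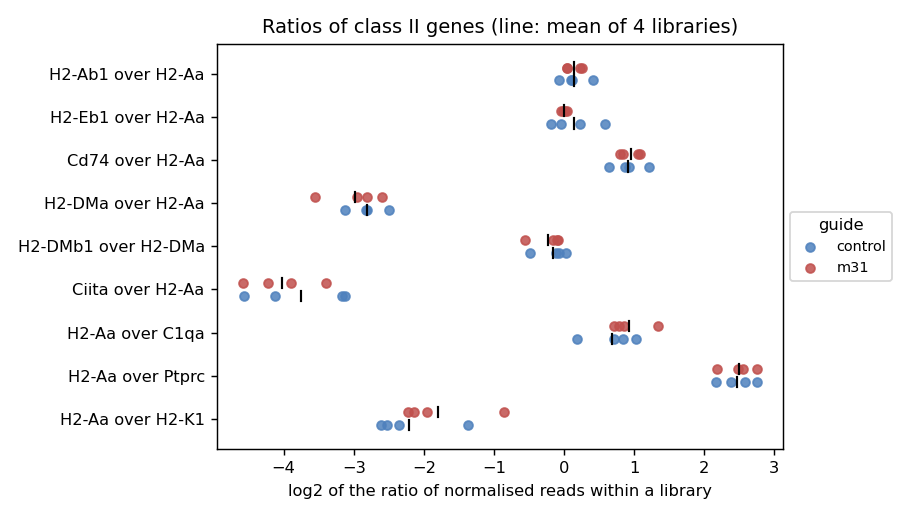
log2 ratio of normalised reads of 2 genes within a library (horizontal axis) for the 9 ratios compared; points are libraries of each guide and black lines the mean of 4. Control and m31 overlap in each ratio, and H2-Aa over H2-K1 has the widest range, 1.75 log2 units.

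Among genes that control class II, none differed past the threshold. Of 17 listed regulators 16 were tested, 0 passed in either direction and the median log2 difference was 0.04. Rfx5, Rfxank and Rfxap, whose products bind the X box, had -0.14, 0.04 and 0.01, and Nfya, Nfyb and Nfyc, whose products bind the Y box, 0.00, -0.10 and 0.05 (0.00 for Nfya being a negative estimate before rounding). The interferon-gamma pathway genes Irf1 and Ifngr2 had 0.07 and -0.19. The smallest p values of the list belonged to Irf8 and Spi1, transcription factors of macrophages and dendritic cells. Irf8 had 201.3, 201.3, 196.6 and 298.1 normalised reads under m31 and 149.8, 200.3, 145 and 119.9 under the control guide, so the groups overlapped, with a log2 difference of 0.54 ± 0.18 (SE; limma adjusted p = 0.669). Spi1, which encodes PU.1, had 0.61 ± 0.29 (SE; adjusted p = 0.736).

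Genes of class II loading and turnover gave 0 of 10 past the threshold, 8 positive estimates and a median log2 difference of 0.12. Their summed level was 31965 to 36754 normalised reads under m31 and 31673 to 32474 under the control guide, most of it Cst3, Ctsb and Ctsd. Marchf1 encodes the ligase that removes class II from the surface, and had 25.64, 32.35, 31.86 and 65.7 normalised reads under m31 and 22.6, 16.22, 29.22 and 15.99 under the control guide (log2 difference 0.81 ± 0.32 (SE), limma adjusted p = 0.72). Ctss, the cathepsin that trims the invariant chain, had 0.66 ± 0.43 (SE), and it too was highest in m31 replicate 4 and control replicate 3, at 577.7 and 376.5 normalised reads. Ifi30, the lysosomal thiol reductase, had 0.26 and Cd63, an endosomal membrane protein gene, 0.12.

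Co-stimulatory genes gave 0 of 5 past the threshold: Cd40 and Cd86 had log2 differences of 0.50 and 0.47, Icosl 0.26 and Cd80 -0.50. T cell genes, whose cells read class II, were scarce, and 2 of 10 reached the minimum level, Cd3e (0.43) and Cd28 (-0.30), with 0 past the threshold. The co-receptor gene Cd4, below the minimum and untested, had 29.7 normalised reads in m31 replicate 4 and 2.85 to 8.99 in the other 7 libraries. Of other genes of the class II region, H2-Ob, which encodes a chain of the H2-DM inhibitor H2-O, had a log2 difference of 0.05. H2-Oa and H2-Eb2 were below the minimum, and 0 of the 2 tested genes passed. Class I presentation gave 10 of 10 positive estimates with a median log2 difference of 0.18 and 0 past the threshold, and 8 of 10 with a median of 0.09 without m31 replicate 4. Psmb9 stood at 0.48, H2-D1 at 0.24, Tap2 at 0.22 and Tapbp at 0.13.

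Some lists mark cells that can carry class II. The macrophage, dendritic cell and pan-leukocyte lists had their highest sums of each guide in m31 replicate 4 and control replicate 3. The B cell sum, most of it Ighm, was highest of each guide in m31 replicate 4 and control replicate 2. The 15 macrophage markers summed to 4424 to 10334 normalised reads under m31 and 3242 to 7386 under the control guide, with the highest sums in m31 replicate 4 and control replicate 3. Their estimates were positive for 15 of 15 with a median log2 difference of 0.42, and 0.24 without m31 replicate 4, and 0 passed. Fcgr1, an Fc receptor gene, had 1.24, Adgre1, which encodes F4/80, 0.86, the mannose receptor gene Mrc1 0.70 and the scavenger receptor gene Cd163 0.52. The 6 pan-leukocyte markers summed to 935 to 2353 normalised reads under m31 and 676 to 1515 under the control guide, with a median log2 difference of 0.55, and 0.23 without m31 replicate 4, and 0 past the threshold. Cd53, Laptm5, Itgb2 and Ptprc had log2 differences of 0.82, 0.59, 0.57 and 0.53, and of 0.56, 0.27, 0.27 and 0.20 without that library. In m31 replicate 4 the summed class II genes were 3.07-fold the median of the other m31 libraries, the macrophage markers 2.29-fold, the leukocyte markers 2.49-fold and class I genes 1.27-fold. In control replicate 3 these were 2.01-fold, 2.07-fold, 2.18-fold and 1.02-fold. The part of leukocyte content in the class II values was not tested.

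Of 10 dendritic cell markers 8 were tested, 5 had positive estimates and 0 passed, with a median log2 difference of 0.21. Without m31 replicate 4, 3 of 7 tested were positive and the median was -0.02. The 10 markers summed to 469 to 754 normalised reads under m31 and 470 to 727 under the control guide. Itgax, which encodes CD11c, had a log2 difference of 0.72, Flt3 0.40 and Clec9a 0.21. The 3 negative estimates were Cd209a at -0.22, Zbtb46, a gene that endothelium also expresses, at -0.08 and Clec10a at -0.06. Flt3 had 33.65 normalised reads in m31 replicate 4 and 7.60 to 12.0 in the other 7 libraries. Ccr7, a receptor gene of migrating dendritic cells and of T cells, was below the minimum, with 20.8 in m31 replicate 4, 16.9 in control replicate 3 and 0.837 to 2.86 elsewhere. B cell markers summed to 823 to 1994 normalised reads under m31 and 914 to 1771 under the control guide. Most of this sum was Ighm, so it mainly describes that gene, and it was not high in control replicate 3. The low-count genes Cd79b, Ms4a1 and Pax5 were highest of all libraries in control replicate 3, and the other B cell markers were not. Of 10, only Blnk (0.14) and Ighm (0.13) reached the minimum, with 0 past the threshold, and the defining genes Cd79a and Ms4a1 were near 0, at no more than 12 reads in any library. No listed marker among the measured genes was at 0 in all 8 libraries, which also held for 23007 of all 23008 genes.

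The fibroblast and matrix list was also highest of each guide in m31 replicate 4 and control replicate 3, with sums of 183573 and 57865 normalised reads, 3.35-fold and 1.73-fold the median of the others of that guide. Each sum was mostly Col1a1, Col1a2 and Col3a1, at 55871, 52692 and 48841 normalised reads in m31 replicate 4, and so mainly describes these collagens. The remaining sums lay between 42085 and 58832 for m31 and between 31601 and 41329 for control, and the part of this list in the class II values was not tested. Of its 8 genes 8 had positive estimates, 3 an unadjusted p under 0.05 and 0 passed, with a median log2 difference of 0.90, and of 0.21 without m31 replicate 4. Col12a1, Col1a1, Col1a2 and Col3a1 had log2 differences of 1.07, 1.33, 0.96 and 0.84, and of 0.69, 0.79, 0.51 and 0.23 without that library. Endothelial markers were not high in m31 replicate 4, at 9644 to 11448 normalised reads with m31, lowest in m31 replicate 4, and 9214 to 11144 under the control guide. Of these 8 genes 0 passed, with Emcn at 0.25, Cdh5 at 0.07, Pecam1 at 0.05 and Cldn5 at -0.16. The 8 skeletal muscle markers had 8 of 8 negative estimates, also without m31 replicate 4, a median log2 difference of -0.12 and 0 past the threshold. Mylpf, a myosin light chain gene, stood at 153634 to 181647 normalised reads under m31 and 185729 to 224183 under the control guide. Its groups did not overlap, as for 3.85% of all genes tested, and it did not pass (limma adjusted p = 0.72). Mylpf, Mb, Pvalb and Tnnt3 had log2 differences of -0.29, -0.27, -0.24 and -0.15.

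**Figure D4:**
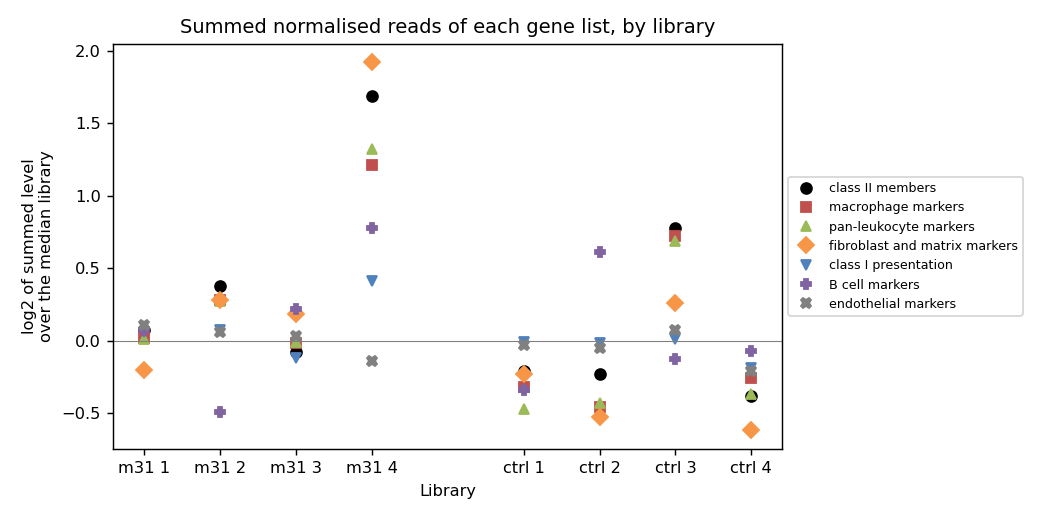
log2 of the summed normalised reads of 7 gene lists over the median of the 8 libraries (vertical axis), for each library (horizontal axis); each symbol is a list. Class II genes reach 1.69 in m31 replicate 4 and 0.78 in control replicate 3, where macrophage and leukocyte markers are also high. Fibroblast and matrix markers reach 1.92 and 0.26 in these libraries, and B cell markers 0.78 and -0.13. Class I genes reach 0.41 and 0.01 and endothelial markers -0.14 and 0.07.

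The genes outside the set with the profile most like its mean, by root-mean-square difference of log2 values centred on the 8 libraries, were Lcp1 (0.082), Lyz2 (0.128), Ptprc (0.132), C1qb (0.135), Col6a3 (0.137), Pld4 (0.140), Otulinl (0.141) and C1qc (0.142). For comparison, the median distance over all genes tested was 0.636, and the members themselves stood at 0.103 (H2-Ab1) to 0.420 (Ciita) from the mean they form. Lcp1, which encodes the leukocyte actin bundler L-plastin, had 219.4, 238.1, 196.6 and 548.1 normalised reads under m31 and 154, 149.8, 367.5 and 154.6 under the control guide. Lyz2 (lysozyme), Ptprc, C1qb and C1qc are leukocyte or macrophage genes, and Col6a3, a collagen VI chain gene of fibroblasts, is not. None of these 8 passed between guides, with log2 differences of 0.30 (Otulinl) to 0.53 (Ptprc).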

How the data were processed

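Total RNA of mouse gastrocnemius was sequenced, per the labels. The deposited table holds signal, that is, read counts divided by 1 size factor per library by the authors; the submitters' processing notes name STAR, DESeq2 and build GRCh38.p12, while the gene identifiers are mouse Ensembl ones. The counting program, strand setting and annotation were not given in the sources used here. Of 11 value columns, 8 match library names in the labels and 3 were not used. All values (100%) were whole multiples of 1 read within 0.01 of a read. The 5 construct entries were kept out of tests and totals.

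The model was limma 3.58.1 (R 4.3.3) on log2(value + 1) (intensity trend, guide as the only term, all 8 libraries, 15960 genes with a mean of at least 10). edgeR 4.0.16 and DESeq2 1.42.0 on recovered reads, other minima, pseudocounts, scalings, array weights, a replicate block and left-out libraries were alternatives; on those reads edgeR called 1 gene and DESeq2 31. The methods were tested on simulated data. The members, gene lists and ratios were chosen with earlier results of these data known. Named genes were the members, up to 4 per list with the smallest p and the 8 nearest profiles; others were picked after their values were seen. Symbols came from GENCODE M21, with older names for Marchf1; the I-E alpha chain, Ifng and Pdcd1lg2 were not analysed here. Same-numbered libraries did not deviate together. Depth, at 31 reads or more per member and library, limits precision less than the spread between libraries.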

Additional observations from a re-analysis of the deposited data

Results flagged for a closer look

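Of 32 groups of 4 libraries checked (members and ratios), 7 had a library whose gap to its neighbour was unusually large for the group's range; chance flags about 1 in 20. In m31 replicate 4 these were H2-Aa at 2229, H2-Eb1 at 2213 and H2-DMb1 at 176 normalised reads. In control replicate 3 they were H2-Ab1 at 1185, H2-Eb1 at 1295 and Cd74 at 2018 normalised reads. The members share these libraries, so the flags are not independent of each other. In m31 replicate 2 the log2 ratio of H2-DMb1 over H2-DMa was -0.56, below the other m31 libraries (-0.16 to -0.09).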

How the results depend on the processing

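Under each of the 19 alternatives run, 0 members passed the threshold, and the median log2 difference of the members stayed positive (0.14 to 0.73 with 1 library left out, the lowest without m31 replicate 4). The count over all genes, 1, was 1 to 2 with 1 library left out, 3 without both m31 replicate 4 and control replicate 3, 31 with DESeq2 and 1 with the replicate block. The replicate block left the median of the members at 0.41 and changed no call among them; same-numbered libraries had correlations of deviations from -0.184 to 0.0464 over genes, so that only the number is shared.

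With 1 library left out, estimates that changed sign ranged from -0.01 to 0.70 for H2-Eb1 and from -0.08 to 0.73 for Ciita. The same held for H2-Ob (-0.30 to 0.25), Ighm (-0.10 to 0.36), H2-DMb2 (-0.03 to 0.27), Zbtb46 (-0.15 to 0.01), Cdh5 (-0.01 to 0.10) and Otulinl (-0.00 to 0.52). With array weights H2-Ob, Zbtb46 and Ighm were at -0.15, 0.02 and -0.00, and without both high libraries Zbtb46 and Ighm were at 0.03 and -0.16. Log2 ratios that changed sign ranged from -0.06 to 0.10 (H2-Ab1 over H2-Aa), -0.06 to 0.13 (Cd74 over H2-Aa), -0.18 to 0.04 (H2-DMb1 over H2-DMa), -0.30 to 0.02 (H2-DMa over H2-Aa) and -0.08 to 0.13 (H2-Aa over Ptprc, -0.09 without both high libraries). The cause was not tested.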
